A study of Mus musculus with 8 samples.

Results

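The features described here are the miscellaneous RNAs (annotation type misc_RNA) of bone marrow-derived macrophages (BMDMs), apart from the Y RNA genes RNY1 and RNY3. Every feature of that type in either of the 2 deposited tables was taken, which gave 223 members of the 3514 features listed in all. Of these, 158 were listed in the Ion Proton table, 164 in the SOLiD table and 99 in both. BMDMs are macrophages grown from bone marrow with Macrophage-Colony Stimulating Factor (M-CSF), here from male C57BL/6J mice that the methods give as 10 weeks old. They were either kept as control cells or deprived of M-CSF for 36 h, which triggers apoptosis, and no allele or other agent set the groups apart. Total RNA was sequenced from 2 control and 2 M-CSF withdrawal samples in the Ion Proton run and from 1 sample of each kind in the SOLiD run, which also held 1 control and 1 withdrawal library of RNA of 25 to 40 nt cut from a gel. The labels call the Ion Proton extract small RNA, whereas the methods start from total RNA, and the name in the methods is used here. The methods describe the 2 Ion Proton libraries of a condition as biological replicates, and whether they came from separate mice is not given in the sources used here.

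Most of these RNAs are made by RNA polymerase III and work as the RNA part of a ribonucleoprotein. 7SL is the scaffold of the signal recognition particle, which takes nascent secretory proteins to the endoplasmic reticulum. 7SK holds the elongation factor P-TEFb inactive in the nucleus. RNase P and RNase MRP are ribozymes that cut precursor tRNA and precursor rRNA. Vault RNA is part of the vault particle, a large cytoplasmic ribonucleoprotein abundant in macrophages, and telomerase RNA, which is made by polymerase II, is the template of telomerase. The genome also holds many copies of these RNAs, most of them thought to be pseudogenes. A small RNA library does not read whole molecules of these lengths, so that a value here is a number of short reads on a feature and not the level of the intact RNA.

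Since most members have only a number for a name, they were grouped by sequence. The closest among the RNAs above, RNY1 and RNY3 was found by blastn. Of the members, 132 resembled 7SK, 43 resembled 7SL, 18 resembled RNY1, 14 resembled RNase P, and 2 each resembled RNase MRP, telomerase RNA and vault RNA. RNY3 was the closest for no member. The remaining 7 had no match and 3 had no sequence. None of the 18 RNY1-like members has the gene name of a Y RNA in the GENCODE annotation, and other annotation of their family was not read. Most groups hold a functional gene and its copies, and 109 of the 223 members had at most 10 reads over all 8 libraries. By the GENCODE annotation of GRCm38 (release M21, the same build as mm10 of the files), 125 of the 223 members lie between other annotated genes. Another 41 lie in an intron of a gene on the same strand and 42 in an intron of a gene on the other strand, while 10 overlap an exon on the same strand and 5 an exon on the other strand. The 42 include ENSMUST00000174967, in an intron of Nol4, whose own strand was not available. Whether the counting used strand is not given in the sources used here, so reads of such a member and of the gene around it cannot be told apart.

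The sequences show why a read cannot always be given to 1 member. Rn7s1 (chr12:69159295-69159591, plus strand) and Rn7s2 (chr12:69361185-69361481, minus strand) are annotated 7SL genes, and both have the same sequence over their whole length of 297 nt.

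The RNY1-like members hold 7 of the 10 calls in the Ion Proton run. All 7 were higher, of 11 such members tested, where 15.7% of all features tested were called higher. Members of the group may share reads, so that these calls need not be separate results. In the sequences below, 4 of the called members are shown after RNY1 itself (chr6:47788069-47788180, minus strand). In RNY1 the capitals mark the stretch of 61 nt that it shares with Gm26168, and in each member they mark its own longest exact stretch in common with RNY1. Gm26168 lies at chr6:122623547-122623658, Gm24379 at chr2:158487602-158487687, Gm22199 at chr13:51014086-51014209 and Gm23921 at chr7:25868945-25869051, all on the plus strand.
Rny1: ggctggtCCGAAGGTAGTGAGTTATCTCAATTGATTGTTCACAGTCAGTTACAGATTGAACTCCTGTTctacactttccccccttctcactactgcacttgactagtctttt
Gm26168: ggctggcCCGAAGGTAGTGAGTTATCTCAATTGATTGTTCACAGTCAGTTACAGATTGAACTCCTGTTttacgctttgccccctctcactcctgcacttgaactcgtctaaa
Gm24379: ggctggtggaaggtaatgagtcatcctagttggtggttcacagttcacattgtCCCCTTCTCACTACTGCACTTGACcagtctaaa
Gm22199: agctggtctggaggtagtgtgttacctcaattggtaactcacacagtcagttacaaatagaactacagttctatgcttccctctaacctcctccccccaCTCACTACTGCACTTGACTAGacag
Gm23921: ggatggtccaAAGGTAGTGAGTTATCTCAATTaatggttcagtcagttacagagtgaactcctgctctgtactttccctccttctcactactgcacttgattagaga
A fragment of 40 nt can fall wholly within the shared stretch of Gm26168, while in the other 3 the stretch spans 21 to 24 nt. Ion Proton reads were kept from 15 nt on, and a read that short can fall within any of these stretches. Gm23921 sits in an intron of the lincRNA gene Gm30146 and Gm24379 in an intron of Ralgapb, both on the same strand, and Gm26168 and Gm22199 lie between annotated genes.

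RNase MRP RNA and its copy differ much more from each other, with 72.3% identity over 155 nt, and the capitals mark the 21 nt that are their longest exact stretch in common. Rmrp lies at chr4:43492788-43493058 and the copy, which the annotation gives only as ENSMUST00000157750, at chr10:4567974-4568213, both on the minus strand. Rmrp overlaps an exon of Ccdc107 on the other strand, and the copy lies between annotated genes.
Rmrp: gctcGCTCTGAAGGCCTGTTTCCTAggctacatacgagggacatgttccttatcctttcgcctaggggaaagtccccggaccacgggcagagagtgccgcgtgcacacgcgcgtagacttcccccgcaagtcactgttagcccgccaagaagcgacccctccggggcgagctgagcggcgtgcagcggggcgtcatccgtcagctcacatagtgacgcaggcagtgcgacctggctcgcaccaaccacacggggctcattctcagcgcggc
ENSMUST00000157750: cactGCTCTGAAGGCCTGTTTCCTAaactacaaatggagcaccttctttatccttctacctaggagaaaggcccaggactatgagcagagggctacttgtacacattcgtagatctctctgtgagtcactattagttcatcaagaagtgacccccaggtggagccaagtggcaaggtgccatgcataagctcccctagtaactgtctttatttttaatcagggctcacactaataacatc

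The members took a small part of each library. Between 6053130 and 7760142 reads of an Ion Proton library fell on listed features, and from 4039837 to 12178454 in the SOLiD libraries. Of these, the members held 0.321% and 0.283% in the controls of the Ion Proton run and 0.366% and 0.341% after M-CSF withdrawal. The SOLiD share was 0.583% in control cells and 1.74% after withdrawal in total RNA, and 0.546% and 2.14% in RNA of 25 to 40 nt. In the same libraries the share of miRNA reads was 40.4% and 41.6% in Ion Proton control cells and 30.0% and 30.3% after withdrawal. It was 82.2% in control and 41.3% after withdrawal in SOLiD total RNA, and 87.4% and 45.1% in RNA of 25 to 40 nt. A share of reads therefore depends on what it is taken over, and results that turn with that choice are given with both values. RNA integrity numbers were 8.4 to 8.9 in the Ion Proton run, 8.4 for the SOLiD control library of total RNA and 7.5 for the withdrawal library, and 2.7 and 2.6 for the size selected RNA. All 5 myeloid miRNA markers were listed in the Ion Proton run, but miR-142a-3p and miR-142a-5p were not listed in the SOLiD run. The markers listed summed to 67807 to 384366 per 1000000 in control and 50885 to 142392 in withdrawal libraries. Most of each sum was miR-21a-5p, with 42646 to 359445 per 1000000. The level of miR-223-3p was 66.9 to 96.5 in the Ion Proton run and 4473 to 11725 in the SOLiD run. Of 9 markers of other cell types, 7 were listed, with 25.9 to 4431 per 1000000 in control and 16.7 to 5444 in withdrawal libraries. Of these, miR-133a-3p, miR-126a-3p and miR-145a-5p were listed in the SOLiD run only, so that the sums of the runs cover different markers. The liver marker miR-122-5p was at 0 in 3 of the 4 Ion Proton libraries, but it had 52.7 to 89.6 per 1000000 in the SOLiD libraries. There the erythroid marker miR-451a had 2394 to 3988, the epithelial marker miR-200c-3p 572 to 840 and the muscle marker miR-133a-3p 207 to 394 per 1000000, and the part of other cells in the results below was not tested. In bulk RNA, fewer cells of a type and less RNA per cell cannot be told apart.

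Vault RNA rose after M-CSF withdrawal. Vaultrc5, the mouse vault RNA gene (chr18:36801866-36802008, plus strand, between annotated genes), had 463 and 455 counts per 1000000 listed reads (CPM) in the controls of the Ion Proton run and 1168 and 1082 CPM after withdrawal. Both withdrawal libraries lay above both control libraries, as they did for 33.4% of all features tested, with means of 459 ± 5.81 and 1125 ± 60.9 CPM (SD, n = 2 each). The log2 fold change, 1.35, had a standard error of 0.0728 (adjusted p = 0.00166 by edgeR, from its quasi-likelihood test and adjusted over all 2029 features tested by the Benjamini-Hochberg method). In single comparisons of 1 withdrawal with 1 control library the fold lay between 2.34 and 2.57. Permuting the 4 libraries exactly gave a two-sided p of 0.333, the smallest that such a design allows.

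The SOLiD run, with 1 library each and no test, gave Vaultrc5 136 reads per 1000000 listed reads (RPM; 95% Wilson interval 127 to 146) in control total RNA and 398 (387 to 409) after withdrawal. The size selected RNA gave 134 RPM (127 to 142) without and 725 (699 to 752) with withdrawal of M-CSF. These intervals cover counting error only. With both runs in 1 limma model with the run as a term, the log2 fold change was 1.37 (SE 0.148, adjusted p = 0.00638 by limma). Without Ion Proton control replicate 2, withdrawal replicate 1 or withdrawal replicate 2 the adjusted p by limma was 0.0704, 0.0723 and 0.0617. Taken over reads outside miRNA features, the sum of both vault members was, in the Ion Proton run, 2.06 times its control value but 0.872 times in SOLiD total RNA, so that the direction in the SOLiD run rests on the scale. The copy Gm25403 (chr8:65367301-65367443, plus strand; the RefSeq pseudogene Vaultrc-ps1) is 91.5% identical to Vaultrc5 over 142 nt. It had at most 5.29 CPM in the Ion Proton run and its log2 fold change of 0.39 did not pass the threshold (adjusted p = 0.484 by edgeR).

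**Figure D1:**
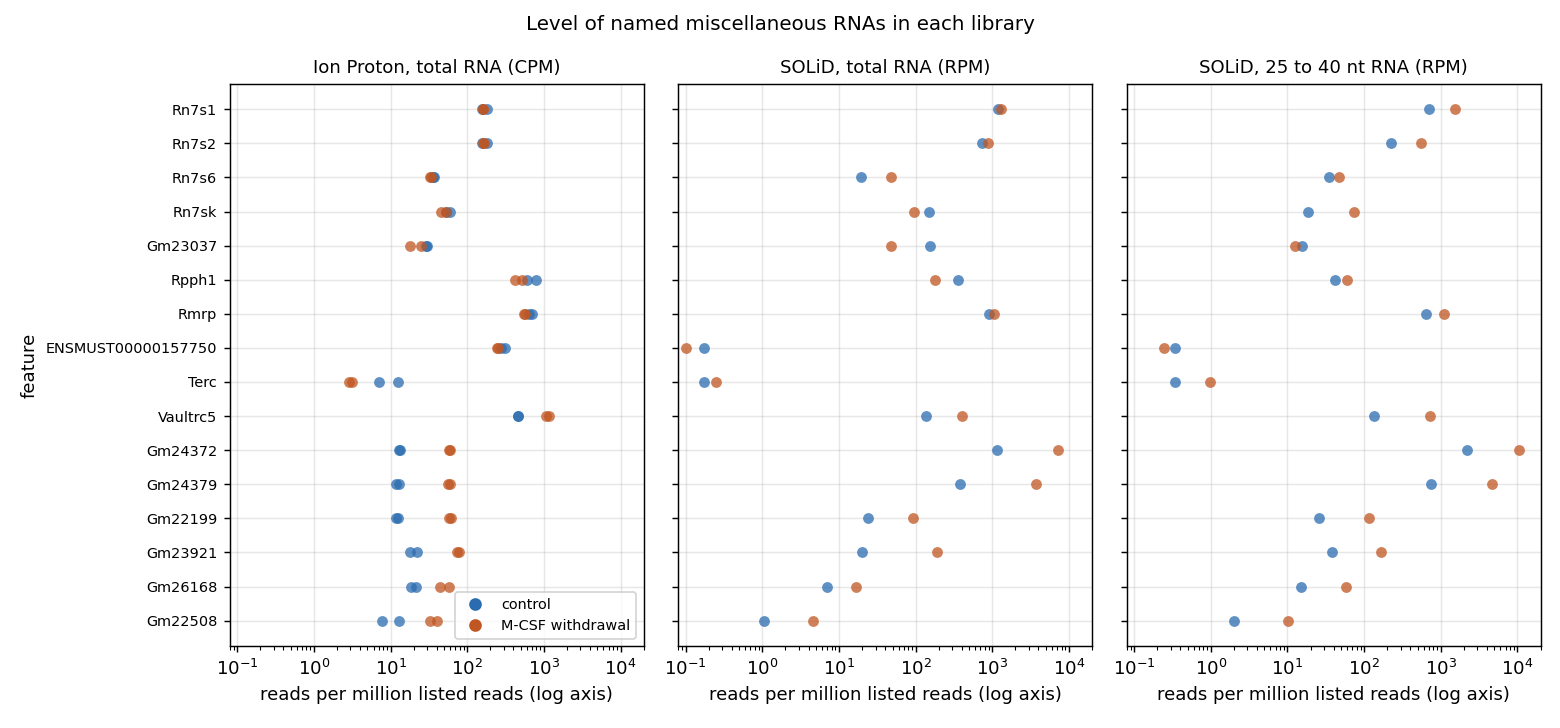
Level of 16 named features in every library, in reads per 1000000 listed reads on a log axis, with control libraries in blue and M-CSF withdrawal libraries in orange; values under 0.1, here a single 0, are drawn at 0.1. Vaultrc5 and the RNY1-like members (Gm24372 to Gm22508) lie higher after withdrawal in all 3 panels, while Rn7s1 and Rn7s2 overlap in the Ion Proton panel.

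Most RNY1-like members that could be tested rose after withdrawal. Of the 18, 11 had a summed Ion Proton count of at least 5 and could be tested, and 7 of these passed the threshold, all higher after withdrawal. The median over the 11 was 2.00 on the log2 scale. Over all features tested in that run, 15.7% were called higher and the median was 0.08. The 3 members with the largest rise and a mean of at least 10 CPM had nearly equal values. Gm22199 had 12.4 and 11.7 CPM in control cells and 57.2 and 61.6 CPM after withdrawal, with a log2 fold change of 2.35 (standard error 0.122, adjusted p = 0.00166 by edgeR). Gm24379 had 13.0 and 11.8 CPM in control cells and 56.7 and 59.5 CPM after withdrawal. Gm24372 (chr18:21302198-21302307, plus strand) had 13.4 and 12.8 CPM, and then 57.8 and 60.1 CPM. The control values of all 3 lay below their withdrawal values without overlap, as did those of 33.4% of all features tested.

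Within each Ion Proton library the highest of these 3 counts was 1.02 to 1.10 times the lowest, though Gm24379 and Gm22199 share no exact stretch longer than 18 nt. The aligner was allowed up to 10 genomic places for a read of that run, and the sources used here do not give whether such a read was counted once or several times. In the SOLiD libraries the same 3 features were 49.0 to 89.4 times apart. There, Gm24372 had 1155 RPM in control total RNA and 7225 after withdrawal, and Gm22199 had 23.6 and 91.3.

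The other called members of the group were less alike after withdrawal than Gm22199, Gm24379 and Gm24372. In the Ion Proton controls, however, Gm23921 and Gm26168 had nearly equal counts, 138 and 159 beside 144 and 156 reads. Gm23921 had 17.8 and 22.1 CPM in control cells and 79.3 and 74.2 CPM after withdrawal, a log2 fold change of 2.00 (standard error 0.144, adjusted p = 0.00272 by edgeR). Gm22508 (chr18:69777936-69778045, minus strand) had 7.73 and 13.0 CPM in control cells and 39.9 and 32.4 CPM after withdrawal. Gm26168, which is 92.7% identical to RNY1 over 110 nt, and Gm26124 (chr17:76111197-76111304, minus strand) were named after their values were seen. Gm26168 had 18.6 and 21.7 CPM in control cells and 58.0 and 44.8 CPM after withdrawal, with a log2 fold change of 1.40 (adjusted p = 0.00883 by edgeR). Gm26124 had 1.29 and 1.11 CPM, and then 5.98 and 6.77 CPM, from 10 reads or fewer in a control library. For comparison, RNY1 had 37.9 and 38.2 CPM in control cells and 131 and 121 CPM after withdrawal, and a log2 fold change of 1.78. In SOLiD total RNA it had 4341 RPM in control and 36688 after withdrawal. Gm24372 had 33.6% to 49.7% of the RNY1 count in the Ion Proton libraries and 19.7% to 27.2% in the SOLiD libraries. For Gm23921 these were 46.9% to 61.3% and 0.375% to 0.512%. Whether reads on the RNY1-like members came from RNY1 was not tested.

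In the limma model of both runs, 8 of the 11 RNY1-like members tested passed the threshold, all higher, where 11.6% of all features did so. These were the same 7 and Gm24045, whose adjusted p was 0.0497 by limma. Without Ion Proton control replicate 2, withdrawal replicate 1 or withdrawal replicate 2, only Gm24372 was still called, and without control replicate 1 there were 5 called. All 8 members with at least 10 RPM in both SOLiD libraries of total RNA were at least 2-fold higher after withdrawal, where 41.2% of all such features were. In RNA of 25 to 40 nt this held for 10 of 10 members, and for 47.7% of all features. Gm24203 (chr4:98275725-98275838, plus strand), which was named after its values were seen, differed between the runs, with 370 reads in control and 8628 in withdrawal SOLiD libraries of total RNA, but only 7 to 18 reads in an Ion Proton library (log2 fold change 0.98, adjusted p = 0.227 by edgeR).

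**Figure D2:**
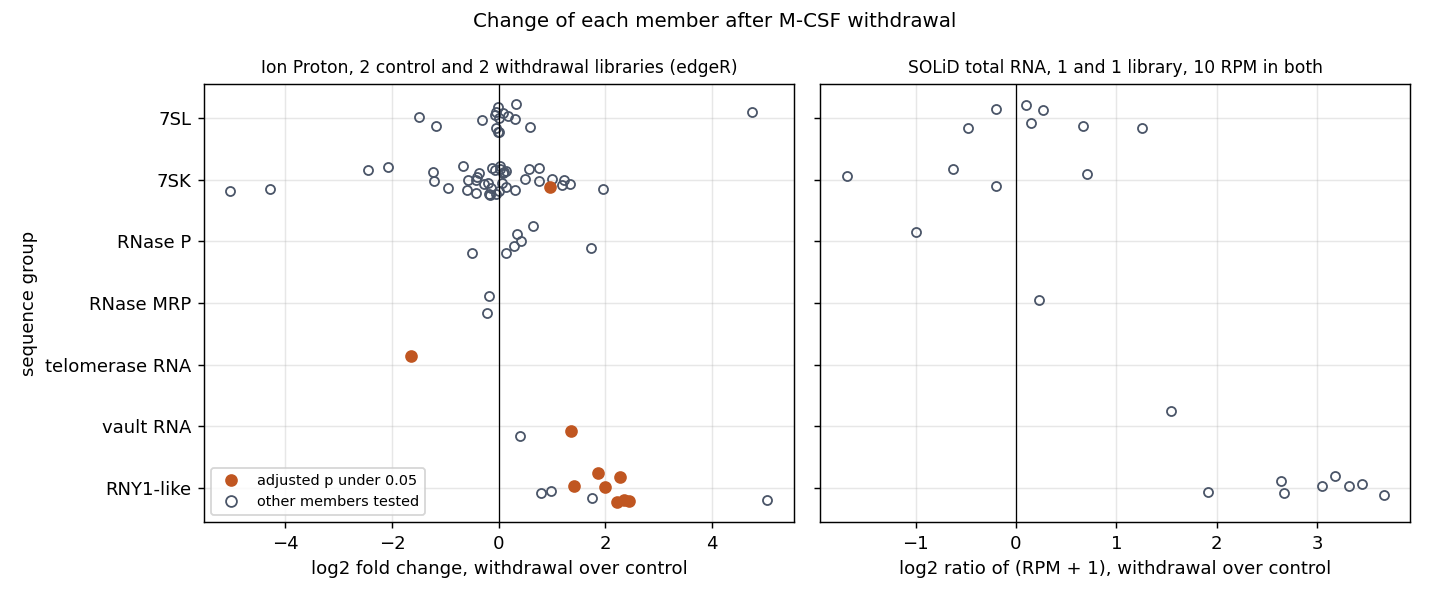
Change of each member after M-CSF withdrawal by sequence group, as the log2 fold change fitted by edgeR to the Ion Proton counts (left) and as the log2 ratio of RPM plus 1 between the SOLiD libraries of total RNA (right, members with at least 10 RPM in both). Filled points passed an adjusted p of 0.05 on the left, 9 higher and 1 lower, and no test was made on the right, where the RNY1-like members lie between 1.91 and 3.66.

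The 7SL members did not pass the threshold in either direction. Rn7s1 had 181 and 156 CPM in the controls of the Ion Proton run and 163 and 162 CPM after withdrawal, and Rn7s2 had 180.4 and 156 CPM and then 163 and 162 CPM. For both genes the withdrawal libraries lay between the control libraries. The log2 fold change of Rn7s1 was -0.003 (standard error 0.101, adjusted p = 0.990 by edgeR). All 16 members tested had an adjusted p over 0.05 by edgeR, where 24.6% of all features were called in either direction. Their median log2 fold change was -0.007. None had an unadjusted p under 0.05, where 723 of all 2029 features did. DESeq2 called none either. The median became 0.31 with TMM factors over miRNA features only, where the median of all features became 0.39. The summed level of the group was 616 ± 57.1 CPM in control cells and 595 ± 6.99 CPM after withdrawal (SD, n = 2 each).

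Identical genes did not get the same number of reads in both runs. The Ion Proton count of Rn7s1 was 0.996 to 1.00 times that of Rn7s2, as in control replicate 1 with 1403 and 1400 reads. In the SOLiD libraries Rn7s1 had 1.48 to 3.10 times the reads of Rn7s2. Rn7s1 had 1173 RPM in control total RNA (95% Wilson interval 1146 to 1202) and 1302 (1282 to 1322.5) after withdrawal. In RNA of 25 to 40 nt it had 696 RPM (678 to 713) and 1542 (1505 to 1581). The control library of total RNA thus held more of it than the size selected one, while after withdrawal the order was turned, with 0.593 and 1.18 times the total RNA value.

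The 7SL copies did not follow the order of their percent identity to Rn7s1 in their reads, and that identity covers alignments of different length. Rn7s6 (chr6:69516339-69516620, plus strand; 98.6% identity over 214 nt) had 20.2% to 22.6% of the Rn7s1 count in the Ion Proton libraries. Gm24105 (chr5:149247954-149248244, minus strand), with a lower identity of 91.6% but over 298 nt, had 42.2% to 48.6%. Gm26461 (chr9:88553236-88553534, plus strand, in an intron of Zfp949 on the same strand) had 19.8% to 22.5%. In the SOLiD libraries the same 3 copies had at most 12.6% of the Rn7s1 reads. Gm22567 (chr18:65427469-65427810, plus strand) and Gm24514 (chr18:55622633-55622920, minus strand) are the other 7SL copies among the 10 unnamed members with the highest level, with 38.4 to 50.0 and 29.4 to 31.9 CPM in the Ion Proton libraries. In 29 of the 43 members the best alignment ended before position 100 of Rn7s1, and 27 of these 29 had at most 10 reads in all libraries.

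For 7SK, Rn7sk (chr9:78175303-78175633, minus strand) had 60.3 and 52.9 CPM in the controls of the Ion Proton run and 53.5 and 45.9 CPM after withdrawal. The groups overlapped, with a log2 fold change of -0.14 (standard error 0.126, adjusted p = 0.524 by edgeR). Of 132 members, 41 could be tested and 1 was called higher, where 15.7% of all features were, namely Gm24139 (chr5:134204469-134204756, plus strand, in an intron of Gtf2ird2 on the same strand), which was named after its values were seen. It had 3.74 and 3.48 CPM in control cells and 6.75 and 6.77 CPM after withdrawal, a log2 fold change of 0.95 (adjusted p = 0.0402 by edgeR). Without any 1 of the 4 libraries its adjusted p lay between 0.102 and 0.218 by edgeR. The median log2 fold change of the 41 members was -0.07, and it was 0.21 with TMM factors over miRNA features only.

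Gm23037 (chr17:46403875-46404198, plus strand, in an intron of Zfp318 on the same strand) aligns with Rn7sk over the whole length of 7SK at 89.2% identity, and its reads were close to those of Rn7sk in the SOLiD control library. It had 155 RPM there (95% Wilson interval 145 to 165) beside 150 for Rn7sk (140.02 to 159.99), and 47.5 (43.7 to 51.5) after withdrawal beside 96.4 (91.0 to 102) for Rn7sk. In the Ion Proton run it had 29.0 and 29.8 CPM in control cells and 24.7 and 18.2 CPM after withdrawal. The control values lay above the withdrawal values, as for 28% of all features tested, but the log2 fold change of -0.40 did not pass the threshold (adjusted p = 0.192 by edgeR). Other 7SK copies hold long parts of Rn7sk, such as Gm24447 (chr15:93234363-93234700, plus strand) with an exact stretch of 241 nt, which had 18.2% to 22.6% of the Rn7sk count in the Ion Proton libraries. The median 7SK copy shared an exact stretch of 18 nt with Rn7sk. Zakit, a feature with 7SK-like sequence listed in the SOLiD table only, had at most 0.449 RPM.

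**Figure D3:**
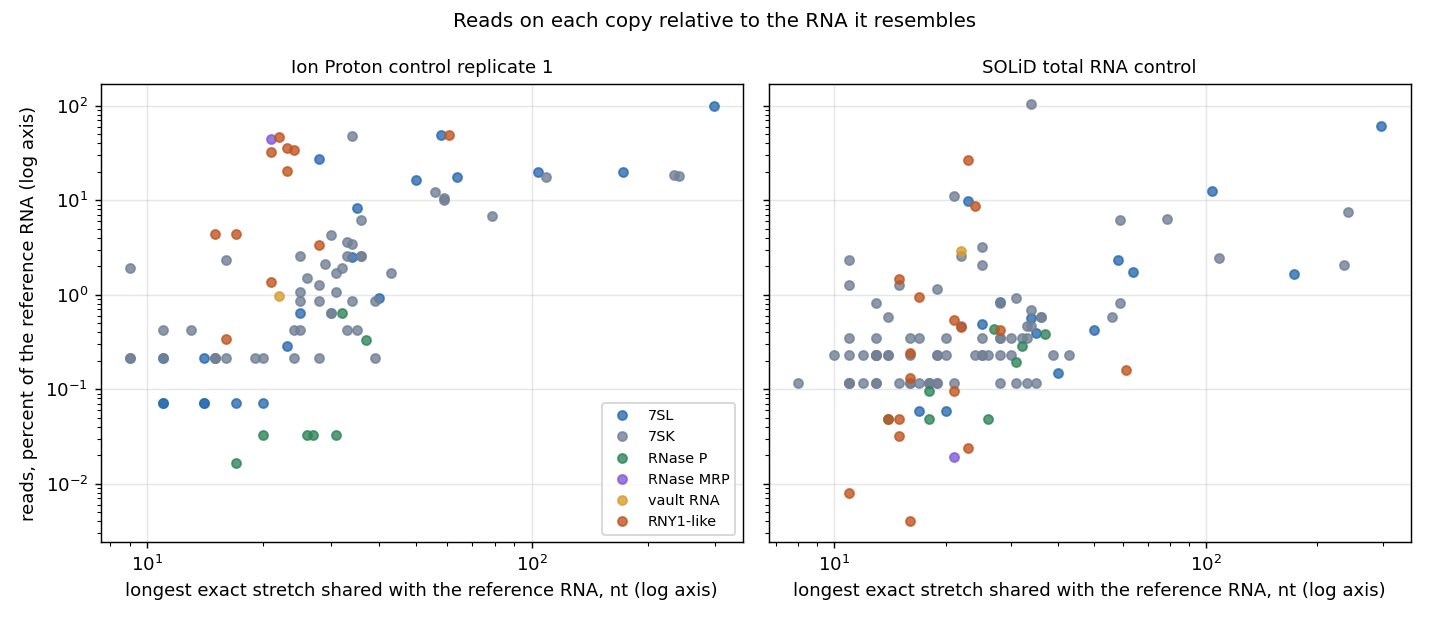
Reads on each copy as a percent of the reads on the RNA it resembles, against the longest exact stretch in common, for 1 library of each run with both axes on a log scale (copies with 0 reads are not drawn). Rn7s2, the blue point farthest right, has 99.8% of the Rn7s1 reads in the Ion Proton library and 61.9% in the SOLiD library, and the RNase MRP copy has 44.1% and 0.0193% of the Rmrp reads.

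Among the catalytic RNAs, Rpph1, the RNA of RNase P (chr14:50807449-50807767, minus strand, over an exon of Ccnb1ip1 on the same strand), had 782 and 600 CPM in the controls of the Ion Proton run and 513 and 426 CPM after withdrawal. Both control libraries lay above both withdrawal libraries, as did 28% of all features tested. The log2 fold change, -0.51, had a standard error of 0.164 (adjusted p = 0.0982 by edgeR), which did not pass the threshold. It passed with DESeq2 size factors (adjusted p = 0.0369 by edgeR), by the DESeq2 Wald test (0.000123) and without control replicate 2 (0.0305 by edgeR). With TMM factors over miRNA features only, the log2 fold change was -0.19 (adjusted p = 0.535 by edgeR). In SOLiD total RNA Rpph1 had 360 RPM (95% Wilson interval 344 to 375) in the control and 180.2 (173 to 188) in the withdrawal library. In both runs by limma the log2 fold change was -0.70 (adjusted p = 0.0608), and scaled to miRNA reads it was -0.074 (adjusted p = 0.852). The RNase P copies Rprl1, Rprl2 and Rprl3, which are 83.7% to 86.0% identical to Rpph1 over 257 nt, had at most 5.03 CPM in an Ion Proton library, and their log2 fold changes of 0.35, 0.14 and 0.41 did not pass the threshold by edgeR. None of the 7 RNase P members tested was called, where 24.6% of all features were called in either direction, and 1 had an unadjusted p under 0.05.

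Rmrp had 706 and 636 CPM in the controls of the Ion Proton run and 562 and 547 CPM after withdrawal. The control values were the higher ones without overlap, as for 28% of all features tested. The log2 fold change of -0.22 (standard error 0.0829) had an adjusted p of 0.140 by edgeR, and the fold change was 0.09 with TMM factors over miRNA features only. With DESeq2 size factors or library sizes from mapped reads it passed, with adjusted p-values of 0.0352 and 0.0402 by edgeR. In SOLiD total RNA Rmrp had 897 RPM (95% Wilson interval 873 to 922) in the control and 1054 (1035 to 1072) in the withdrawal library. Per listed read the runs thus differed in direction. Taken over reads outside miRNA features, the sum of both RNase MRP members was lower after withdrawal in both runs, so that the difference rests on the scale. The copy on chromosome 10 had 311 and 278 CPM in control cells and 256 and 243 CPM after withdrawal, between 43.7% and 45.5% of the Rmrp count in all 4 Ion Proton libraries. In the 4 SOLiD libraries the same copy had at most 0.337 RPM, and in the withdrawal library of total RNA it had 0 reads, which allows up to 0.246 RPM if 0 is read as under 3 counts (95% Wilson upper bound 0.315 RPM).

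Telomerase RNA was the member called lower. Terc (chr3:96414437-96414859, minus strand) had 55 and 90 reads in the controls of the Ion Proton run and 19 in each withdrawal library, or 7.09 and 12.5 CPM and then 2.91 and 3.14 CPM. The log2 fold change, -1.64, had a standard error of 0.371 (adjusted p = 0.0407 by edgeR), where 8.97% of all features were called lower. Leaving out control replicate 2, withdrawal replicate 1 or withdrawal replicate 2 ended the call, with adjusted p-values of 0.0680, 0.149 and 0.129 by edgeR, and so did TMM factors over miRNA features only (0.0658). The SOLiD libraries held 1 to 4 reads of Terc each, too few for a comparison. The SOLiD table also listed 1600017P15Rik (chr3:30595346-30595757, minus strand), 81.1% identical to Terc over 408 nt, which had 22.9 RPM in control total RNA and 8.62 after withdrawal, and 12.3 and 3.47 in RNA of 25 to 40 nt.

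Per 100 nt of gene length, Vaultrc5 had the highest level of the 6 main genes in the Ion Proton control libraries, with 324 and 318 CPM per 100 nt. Rmrp followed with 260.4 and 235, then Rpph1 with 245 and 188, whose values overlap those of Rmrp. Rn7s1 had 60.9 and 52.6, Rn7sk 18.2 and 16.0, and Terc 1.68 and 2.96. In SOLiD control total RNA the level per 100 nt was 395 RPM for Rn7s1, 331 for Rmrp, 113 for Rpph1 and 95.2 for Vaultrc5. The order of the genes by level thus differed between the runs.

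The share of reads on these RNAs also differed between the size selected and the total RNA libraries of the SOLiD run. The size selected libraries still held 87.4% miRNA reads in control and 45.1% after withdrawal. A ratio given here compares shares of separate libraries and is not a distribution over fragment lengths. In control cells of the SOLiD run, the level in RNA of 25 to 40 nt was 0.117 times that in total RNA for Rpph1, 0.124 times for Rn7sk and 0.0994 times for Gm23037. It was 0.708 times for Rmrp, 0.593 times for Rn7s1 and 0.987 times for Vaultrc5. All 10 RNY1-like members with at least 10 RPM in either library were higher in the size selected RNA, with a median log2 ratio of 1.00. Over all 1103 such features the median was -0.33, and 454 were higher. After withdrawal 13 of 16 such RNY1-like members were higher in the size selected RNA and 3 lower, and their median was 0.33. Of all 1154 such features, 616 were higher after withdrawal. For the other genes, after withdrawal the ratio was 0.328 for Rpph1, 0.775 for Rn7sk and 0.266 for Gm23037, and 1.06, 1.18 and 1.82 for Rmrp, Rn7s1 and Vaultrc5. Each of these 6 ratios was higher after withdrawal than in control cells, as was the median over all features, 0.06 on the log2 scale. With 1 library for each value, and RNA integrity of 8.4 and 7.5 in the total RNA, the condition and the library cannot be told apart.

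**Figure D4:**
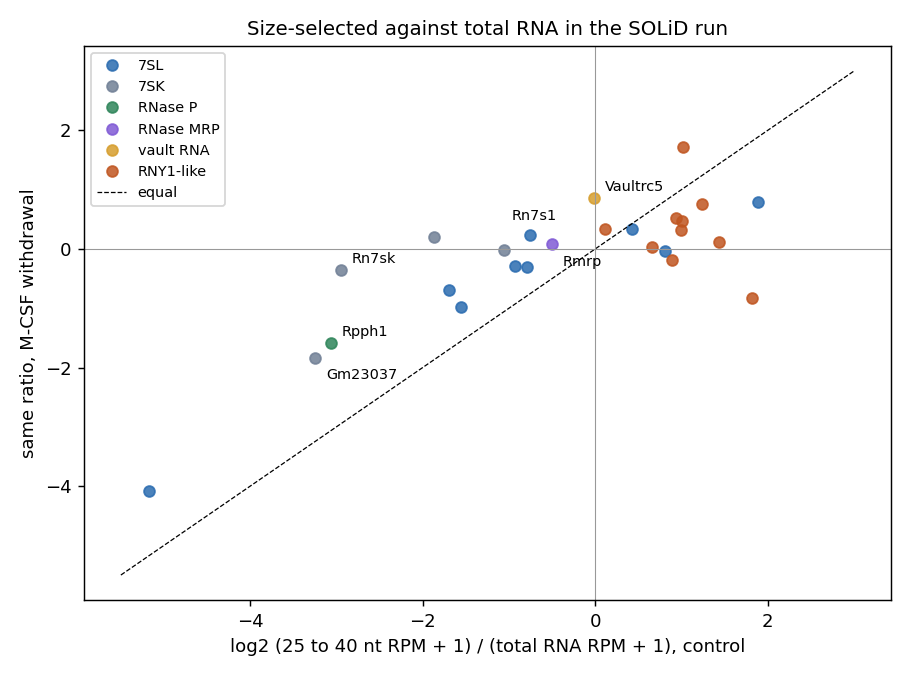
Log2 ratio of RPM plus 1 between RNA of 25 to 40 nt and total RNA in control cells (x axis) and after M-CSF withdrawal (y axis), for SOLiD members with at least 10 RPM in either library of both conditions. Rpph1, Rn7sk and Gm23037 lie far to the left, and the 6 labelled members lie above the dashed line of equal ratios, while most RNY1-like members lie below it.

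Over all 80 members tested in the Ion Proton run, 9 were called higher and 1 lower, where 15.7% and 8.97% of all 2029 features were, and 16 had an unadjusted p under 0.05. The median log2 fold change was 0.06 beside 0.08 over all features. In the limma model of both runs, 9 of 70 members were called higher and none lower, where 11.6% and 5.7% of all 1701 features were, and 17 had an unadjusted p under 0.05. Voom called 12 higher and none lower, where 16.3% and 8.52% of all features were. Other RNA polymerase III transcripts did not all move alike. Of 421 nuclear tRNA features tested in the Ion Proton run, 216 were called higher and 13 lower by edgeR, and of 120 features named as 5S rRNA none was called higher and 57 lower. With TMM factors over miRNA features only, 1 of the 5S features was called higher and 49 lower. U6 snRNA, by its only named feature Rnu6, had a log2 fold change of 0.30 and did not pass. Of 8 named spliceosomal snRNA features made by polymerase II, 2 were called higher, and most snRNA features carry only a number and are not in this list.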

How the data were processed

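Ion Proton reads were trimmed by the authors (cutadapt 1.2.1), kept from 15 nt on and mapped to mm10 with bowtie2 2.2.4 in local mode, with up to 10 places for a read, and the raw read counts per feature were deposited. For the SOLiD run, the authors mapped reads with LifeScope and deposited reads per 1000000 listed reads (RPM), from which whole reads were recovered (100% of values within 0.1 of a whole number). Tool versions are from the submitters' processing notes. The annotation they used was miRBase, the UCSC tRNAs and Ensembl non-coding RNA. Depth was the total of listed reads, from 4039837 to 12178454 per library, and intervals cover counting error only.

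Members were all misc_RNA features except RNY1 and RNY3. Of 223, 193 were found in GENCODE M21, and 220 had a sequence, 158 from the deposited table and 62 from GENCODE. They were grouped by their best blastn 2.17.0 match (e-value at most 1e-05, word size 7). Members were searched on the plus strand against the named RNAs of the groups, RNY1 and RNY3. Coordinates are on GRCm38. The RefSeq name Vaultrc-ps1 was matched by coordinates on the same build.

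For the Ion Proton counts, edgeR 4.0.16 (R 4.3.3) was used with TMM factors and its quasi-likelihood test on 2029 features, each with 5 or more reads in sum. A standard error beside an edgeR value is the absolute log2 fold change divided by the square root of the F statistic of that test. Both runs of total RNA, 3 control and 3 M-CSF withdrawal libraries, were tested with limma 3.58.1 on log2 of the CPM or RPM plus 1 with treatment and run as terms. The Benjamini-Hochberg adjustment covered all features tested, and the threshold was 0.05. SOLiD pairs have 1 library each and no test. The fits were tested on simulated data, and replicates were checked for duplicated libraries, with a scatter of 22.4 to 23.0 times the counting variance. Named were every member with a gene name other than a number, the 10 others with the highest mean log2 level over the 6 libraries of total RNA, and the 5 largest rises and 5 largest falls among called members of at least 10 CPM (no fall qualified). Members and lists were chosen with earlier results of these data known. Alternatives were DESeq2 1.42.0, other scalings, minimum counts, pseudocounts, a replicate block and leaving out each library.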

Additional observations from a re-analysis of the deposited data

Results flagged for a closer look

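Among the named members whose Ion Proton groups did not overlap, 2 had the opposite direction in total RNA of both runs and in RNA of 25 to 40 nt. Rpph1 was lower after withdrawal in all total RNA libraries, with a log2 ratio of -0.99 in the SOLiD pair, but it had 42.1 RPM (95% Wilson interval 38.0 to 46.6) in the size selected control library and 59.2 (52.1 to 67.2) after withdrawal, a log2 ratio of 0.48. The 7SL copy Gm26461 had 148 and 128 RPM in SOLiD total RNA and 49.4 and 64.9 in RNA of 25 to 40 nt, a log2 ratio of 0.39. In the Ion Proton run its log2 fold change was near 0, at -0.015 (SE 0.106, adjusted p = 0.939 by edgeR), and it was 0.30 with TMM over miRNA features only. Rn7sk, whose Ion Proton groups overlap (log2 fold change -0.14), differed more between the fractions, with 150 and 96.4 RPM in SOLiD total RNA (log2 ratio -0.63) and 18.5 and 74.8 RPM in RNA of 25 to 40 nt (log2 ratio 1.96). The difference between the fractions was not tested, since the size selected RNA has 1 library per condition. The ratios of Rpph1 and Gm26461 in RNA of 25 to 40 nt were below the median of 0.90 that the 903 features at 10 RPM or more in these libraries had.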

How the results depend on the processing

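The 9 members called higher in the Ion Proton run numbered 7 to 9 under every alternative there, and 7 of them (Vaultrc5, Gm24372, Gm24379, Gm22199, Gm23921, Gm22508 and Gm26168) were called in each. Members called lower numbered 3 with DESeq2 size factors and 3 by DESeq2 (Terc, Rmrp and Rpph1), 2 with library sizes from mapped reads, 0 with TMM over miRNA features only, and 0 to 1 without 1 library. The replicate block gave 8 higher and 1 lower (Rpph1 in place of Terc). Same-numbered libraries did not deviate together (correlation -0.018). With 2 libraries per group this cannot show whether the numbers pair them, and the sources used here do not give it. The median log2 fold change of the members was -0.062 with DESeq2 size factors, -0.064 by DESeq2, 0.37 with TMM over miRNA features only, -0.070 with mapped reads, 0.28 with a minimum count of 1 and -0.066 to 0.11 without 1 library. The median of all features moved from 0.08 to 0.39 with TMM over miRNA features only.

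In both runs, 9 members were called higher, 4 with the replicate block and 1 to 6 without 1 library (6 without control replicate 1, and 1, Gm24372, without any other). Centring on the median gave 1 lower (Rpph1).

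With TMM over miRNA features only, log2 fold changes turned to 0.091 for Rmrp, 0.31 for Rn7s1, 0.18 for Rn7sk, 0.26 for Rn7s6, 0.30 for Gm24105, 0.30 for Gm26461, 0.13 for ENSMUST00000157750 and 0.27 for Gm24514. Near 0, Rn7s1 turned to 0.0098 (minimum count 10) and 3.3e-05 (replicate block), and Gm24105 to 0.0021 and 0.0011 in the same settings. Rn7s2 turned to -0.11 with DESeq2 size factors, -0.11 by DESeq2 and -0.13 with mapped reads. Without 1 library the values spanned -0.097 to 0.0085 for Rn7s1, -0.090 to 0.014 for Rn7s2, -0.11 to 0.35 for Rprl2, -0.53 to 2.08 for Rprl1, -0.20 to 0.099 for Gm24105 and -0.12 to 0.035 for Gm26461. In both runs, scaling to miRNA reads turned Rmrp to 0.52, Rn7sk to 0.29, Rprl1 to 0.27, Gm26461 to 0.51 and Gm24514 to 0.58. Centring turned Rn7s1 to -0.29, Rn7s2 to -0.25, Rprl2 to -0.22, Rprl3 to -0.11 and Gm24105 to -0.12. The Ion Proton run alone by limma gave -0.052 for Rn7s1, -0.045 for Rn7s2, -0.10 for Rn7s6, 0.20 for Rprl1 and -0.048 for Gm24105. Without 1 library these fits spanned -0.025 to 0.095 for Rn7s1, -0.049 to 0.22 for Rprl2 and -0.54 to 0.035 for Rprl1. None of these members was called with all libraries in the edgeR or limma fit reported, and the cause of each turn was not tested.

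The median log2 ratio of SOLiD members, 0.69 in total RNA and 1.31 in RNA of 25 to 40 nt, was 0.26 and 0.41 after centring and 1.66 and 2.25 per 1000000 miRNA reads. Over reads outside miRNA, the withdrawal over control ratios of the group sums in the Ion Proton run moved to 0.817 for 7SL, 0.806 for 7SK, 2.06 for vault RNA, 0.704 for RNase MRP and 3.23 for RNY1-like members. In SOLiD total RNA they moved to 0.344 for 7SL, 0.218 for 7SK, 0.872 for vault RNA, 0.155 for RNase P, 0.357 for RNase MRP, 0.117 for telomerase RNA and 2.25 for RNY1-like members. With the largest member of each library alone, the SOLiD ratios were 0.623 for 7SK, where that member was Gm23037 in the control and Rn7sk in the withdrawal library, and 6.25 for RNY1-like members. Depth limits the 109 members with at most 10 reads, of which no change can be read.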

Other observations

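The members that resembled none of the RNAs searched, or had no sequence, numbered 10 and had 1 to 22 reads each over all 8 libraries. ENSMUST00000175246 (chr4:119406034-119406240, plus strand), a 7SL-like feature of 207 nt whose alignment to Rn7s1 spans only 59 nt, had 671 and 1012 reads in the SOLiD libraries of total RNA but 20 and 16 reads in RNA of 25 to 40 nt, and 1 to 4 reads in an Ion Proton library. It was named after its values were seen.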
